A study of Mus musculus with 2 samples.

Results

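The cells described here were lymph node endothelial cells without HEC genes, where an HEC is a high endothelial cell, the specialised endothelial cell of the high endothelial venules (HEVs). They were 162 of the 11269 lymph node (LN) cells kept, a share of 1.44% (exact 95% binomial interval 1.23 to 1.67%), and 162 of 24044 cells deposited in the series. Members were chosen on their own raw UMIs (unique molecular identifiers, each counting 1 captured transcript). Each kept cell had over 200 detected genes and at most 5% of UMIs in mitochondrial genes. A member had at least 10 UMIs of Egfl7, Procr and Hmga2 together, at least 1 UMI of Cdh5, Pecam1, Emcn and Tie1 together, fewer than 5 of Glycam1, Chst4 and Fut7, at most 2 of Cd79a, Cd79b, Cd3d and Cd3e, and at most 20 of Krt8 and Krt18. These 16 genes are therefore given as a description only.

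The study compared the cells of primary tumours (PTs) with those of paired LNs by droplet-based 3′ single-cell RNA sequencing. Tumours came from EO771-HEVM3 cells, a derivative of the EO771 mouse mammary cancer line selected through repeated passage in mice for spread by way of HEVs. Tissue of 6 C57BL/6J mice, the strain given for both groups, was pooled into 1 library per tissue, no untreated or tumour-free group was among the samples used here, and the age of these mice is not given in the labels. With 1 library per tissue there is no replicate, tissue and library cannot be told apart, and no test was run.

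Blood vessels are lined by endothelial cells, which are held together by VE-cadherin (Cdh5) and PECAM-1 (Pecam1) and specialised along the vascular tree into arterial, capillary and venous cells. In LNs, post-capillary venules form HEVs, whose tall cells carry sulphated sialomucins that slow passing lymphocytes, while lymphatic endothelial cells line the sinuses and depend on the transcription factor Prox1. Angiogenic sprouts are led by tip cells, which are known for Apln, Esm1 and Dll4.

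Some sequences help to place the genes on which the results turn. The gate gene Egfl7 (chr2:26580014-26593120, plus strand, GRCm38) codes for a secreted endothelial protein and holds within its gene the endothelial microRNA miR-126a. The mature 3p arm is shown because Egfl7 was a main gate gene, with the seed (bases 2 to 8) in capitals. It lies at chr2:26591402-26591423 on the plus strand of RefSeq build GRCm38.p6, and the counts measured the host gene, not the microRNA.
mmu-miR-126a-3p: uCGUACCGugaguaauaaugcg

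Promoters of 4 endothelial genes are shown because the members held 3 of these genes and lacked the other. They are Emcn, which codes for the sialomucin endomucin (chr3:137340828-137341127), Eng, which codes for the TGF-beta co-receptor endoglin (chr2:32646345-32646644), Robo4, a vascular guidance receptor (chr9:37401722-37402021), and Cldn5, the main claudin of endothelial tight junctions (chr16:18776597-18776896). All lie on the plus strand of GRCm38.p6 and run from 250 bases before to 50 bases after the start in RefSeq. Capitals mark matches on either strand to CAGGAAG (an ETS-type motif, CTTCCTG on the other strand) or AACAAT (a SOX-type motif, ATTGTT on the other strand).
Emcn: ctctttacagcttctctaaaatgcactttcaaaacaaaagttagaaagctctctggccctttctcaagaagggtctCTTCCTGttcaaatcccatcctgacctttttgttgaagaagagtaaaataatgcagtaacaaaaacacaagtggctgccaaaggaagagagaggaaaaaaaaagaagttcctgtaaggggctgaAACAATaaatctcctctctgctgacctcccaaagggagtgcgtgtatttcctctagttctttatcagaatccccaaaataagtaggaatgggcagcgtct
Eng: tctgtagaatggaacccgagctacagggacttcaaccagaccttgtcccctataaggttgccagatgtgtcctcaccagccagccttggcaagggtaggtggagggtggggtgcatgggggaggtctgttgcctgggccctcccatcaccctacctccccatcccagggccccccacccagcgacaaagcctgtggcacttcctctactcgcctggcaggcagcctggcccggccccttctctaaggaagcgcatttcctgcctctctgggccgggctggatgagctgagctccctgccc
Robo4: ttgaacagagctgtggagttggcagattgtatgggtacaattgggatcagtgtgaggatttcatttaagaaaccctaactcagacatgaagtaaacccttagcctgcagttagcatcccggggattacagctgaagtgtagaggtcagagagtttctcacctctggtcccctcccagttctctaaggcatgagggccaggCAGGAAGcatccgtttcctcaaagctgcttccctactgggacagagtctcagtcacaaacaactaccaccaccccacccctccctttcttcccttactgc
Cldn5: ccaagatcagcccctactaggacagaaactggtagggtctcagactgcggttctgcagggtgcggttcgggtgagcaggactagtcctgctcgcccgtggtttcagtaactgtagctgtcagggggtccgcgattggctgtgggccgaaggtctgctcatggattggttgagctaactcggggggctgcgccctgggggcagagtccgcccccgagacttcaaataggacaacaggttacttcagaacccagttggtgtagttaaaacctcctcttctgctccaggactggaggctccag

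The ETS letters were in 3 of the 11 promoters that could be matched for the endothelial core list, and in 13.0% of all 27025 promoters of this length. The SOX letters were in 2 of the 11 and in 10.9% of all promoters. The Eng and Cldn5 windows held neither set of letters, although the members held Eng and lacked Cldn5. The motifs do not overlap each other in these windows.

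The members were among the deepest cells of the LN library. They held 9293246 UMIs in all, with 3264 UMIs in the shallowest member, a median of 58507 and 166226 in the deepest. Their detected genes ran from 1090 to 9214 with a median of 6661.5, and 103 members (63.6%) were over 6000 genes, the upper limit in the methods of the study. The median share of mitochondrial UMIs was 1.38%. By comparison, the median was 46277 UMIs in the 55 LN HECs that passed the same gates with 5 or more HEC gene UMIs, 45661 in 1091 keratin-positive LN cells, 3495 in 2295 LN T cells and 1860 in 4672 LN B cells. The whole LN library held 122207852 UMIs over 11617 cells and the PT library 173317475 over 12427. Between the libraries 47 cell barcodes were shared, and 1 member carried such a barcode, which in the PT library belonged to a cell of the broader endothelial set described below.

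**Figure D1:**
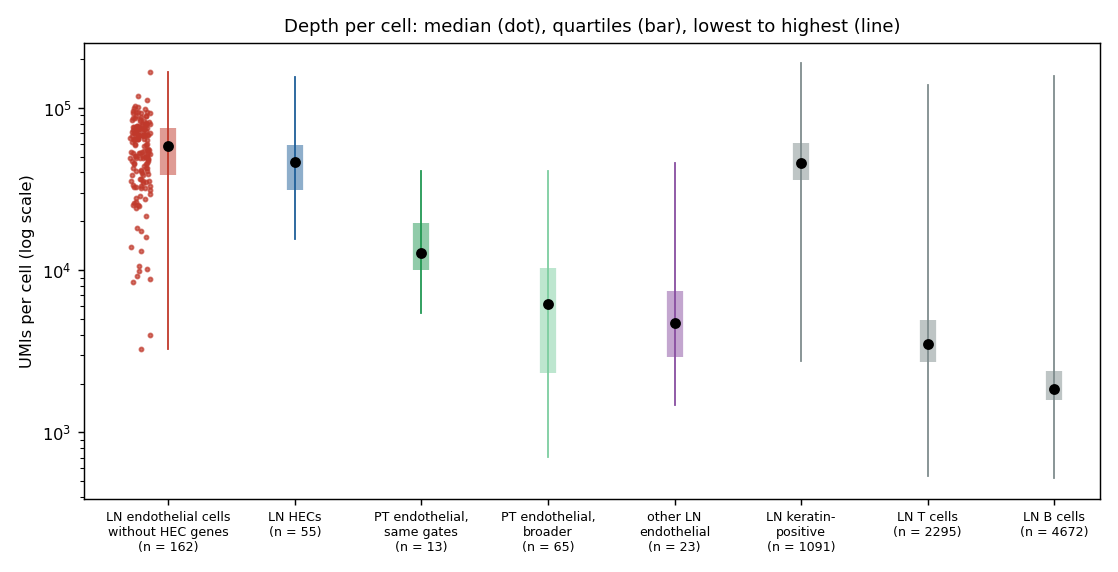
UMIs per cell on a log scale for the members and 7 comparison sets, with the median as a black dot, the quartiles as a bar, the lowest to highest cell as a line and each member as a small red point. The members, with a median of 58507, sat well above the T and B cells of the same library, with medians of 3495 and 1860.

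The gates left clear and less clear edges. The summed UMIs of Egfl7, Procr and Hmga2 in members ran from 10 to 508 with a median of 114, the lowest members had 10, 10, 10, 10 and 11, and the nearest cells outside had 9, 9, 9, 8 and 7. For Cdh5, Pecam1, Emcn and Tie1 the members ran from 2 to 263 with a median of 32.5, and 3 cells failed this gate alone, each with 0. For Glycam1, Chst4 and Fut7, 115 members had 0 and none more than 4, while the 55 HECs ran from 5 to 2003 with a median of 100. The lymphocyte genes were at 0 in 106 members, and 36 cells failed this gate alone, with 3 to 23 UMIs. The keratins were at 0 in 83 members, the highest members had 13 and 4 UMIs, and the 24 cells that failed this gate alone had 45 to 413. The keratin gate thus fell in a gap, whereas the Egfl7, Procr and Hmga2 gate and the lymphocyte gate had cells on both sides. Because the first gate is a fixed number of UMIs, a shallow endothelial cell can miss it, and the 304 cells that failed it alone had a median depth of 2740.5 UMIs.

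The genes of the rule were found together in the same cells. All of Egfl7, Procr and Hmga2 were detected in 153 of 162 members and 2 of them in the other 9. All of Cdh5, Pecam1, Emcn and Tie1 were detected in 107 members, 3 in 45, 2 in 8 and 1 in 2. Levels of summed UMIs are given as CPM, the UMIs of a gene for each 1000000 UMIs of the set, with an exact 95% Poisson interval where one is shown. These intervals, like those of shares, cover counting error only. Egfl7 was at 747 CPM (729 to 764), Procr, the endothelial protein C receptor, at 975 CPM (955 to 995), and Hmga2, a chromatin protein of fetal and transformed cells, at 571 CPM (556 to 587). Emcn was at 214 CPM (205 to 224), with a median of 9 UMIs per cell and a highest cell of 92. Procr and Hmga2 lie at chr2:155751117-155755471 and chr10:120361275-120476469, and Emcn at chr3:137341067-137432185, in GRCm38.

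Shares of cells were compared at a common depth, after each cell was thinned to 1000 UMIs. Of the genes of the rule, given as a description, Egfl7 was then found in 45.2% of members, Hmga2 in 40.1% and Emcn in 18.3%. Among genes the rule did not use, Apln, the ligand apelin, was found in 30.4% of members (23.4 to 38.1%), Ramp2 in 13.2% (8.37 to 19.4%) and Eng in 11.1% (6.73 to 17.0%). In LN T cells with at most 6000 genes and no keratin UMI, a set of 1932 that should lack these genes, the thinned shares of Apln, Ramp2 and Eng were 0.192%, 0.0734% and 0.310%. In the corresponding 4074 B cells they were 0.485%, 0.107% and 0.178%. Unthinned, Apln was found in 90.1% of members, 0.828% of these T cells and 1.08% of these B cells, whose median depths were 3385 and 1830 UMIs. Thinning left out no member, 1 T cell and 44 B cells. Lymphocytes, whose droplets can hold free RNA, thus had low shares of all 3 genes.

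The label was checked against markers of other cell types. The 6 general leukocyte markers, among them Ptprc (CD45), summed to 19.7 CPM in members, against 2712 CPM in the LN T cells and 2260 CPM in the LN B cells. The 9 cancer and epithelial markers outside the rule summed to 44.4 CPM, against 3901 CPM in the keratin-positive cells. The rule capped lymphocyte genes and keratins in members, while the T, B and keratin-positive cells were chosen for them. The leukocyte and epithelial contrasts are therefore a description. Fibroblast and pericyte markers summed to 7.7 and 5.6 CPM, with 4 of 10 and 3 of 9 at 0. Of the 11 myeloid markers, Cd68, a lysosomal membrane protein of macrophages, was at 166 CPM of a summed 172, while the complement genes C1qb and C1qc, which define many macrophages, were at 0 and the integrin gene Itgam at 0.323 CPM. Of the 8 dendritic markers, which summed to 200 CPM, the actin-bundling gene Fscn1 was at 194 CPM, and Xcr1 and Clec9a were at 0. In the HECs Cd68 was at 82.6 CPM and Fscn1 at 148 CPM. The endothelial genes outside the rule were present in part, as given next.

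The members carried a partial endothelial core. Of the 15 core genes outside the rule, 10 were at 10 CPM or more and 9 were found in at least 50% of members. The other 5, Clec14a, Tek, Sox18, Mmrn2 and Cldn5, were under 10 CPM. Among the higher ones, Ramp2, a subunit of the adrenomedullin receptor, was at 155 CPM and Eng at 128 CPM. Ecscr, a regulator of endothelial migration, was at 100.1 CPM, Esam, a junctional adhesion molecule, at 72.7 CPM, and Robo4 at 40.2 CPM. The VEGF receptor genes Kdr and Flt1 were at 41.4 and 19.4 CPM. At the low end, Clec14a, a lectin-like endothelial receptor, was at 6.89 CPM, Tek, the angiopoietin receptor, was at 6.46 CPM, Sox18 at 2.15 CPM and Mmrn2, a matrix protein of vessels, at 0.430 CPM with 4 UMIs.

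Cldn5 was at 0 of 9293246 UMIs, which allows up to 0.323 CPM when a count of 0 is read as 3. It was also at 0 in the HECs, with a limit of 1.06 CPM. In PT cells that passed the same gates it had 150 UMIs, or 691 CPM, in 12 of 13 cells, and the members were at least 2139-fold lower. The same library did hold the transcript: 23 other LN endothelial cells, with at least 3 UMIs of the core gate but fewer than 10 of the Egfl7, Procr and Hmga2 gate, had 35 Cldn5 UMIs (215 CPM, 149 to 299), all in 2 cells. Those 23 cells were shallow, with a median of 4694 UMIs.

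Arterial genes were mostly missing and capillary genes were present in part. Of 12 arterial genes, 10 were under 10 CPM and 6 of these were at 0, namely Gja4 and Gja5, which code for gap junction proteins, the transcription factors Sox17 and Hey1, the kinase Bmx and the elastic fibre gene Fbln5. The exceptions were Cxcl12, a chemokine for CXCR4 cells, at 315.5 CPM and the ephrin gene Efnb2 at 25.7 CPM. Of 11 capillary genes outside the rule, 5 were at 10 CPM or more and 5 were found in at least 50% of members. Cd300lg and Car4 were at 0 and Cd36, a fatty acid transporter, had 1 UMI. Gpihbp1, which anchors lipoprotein lipase, was at 5.49 CPM and Rgcc at 1.72 CPM, while Plvap, the diaphragm protein of fenestrae, was at 76.5 CPM and Fabp4, a fatty acid carrier, at 53.05 CPM. In the 23 other LN endothelial cells Cd36 was at 221 CPM and Fabp4 at 2539 CPM.

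Venous genes were at 10 CPM or more for 7 of 12, and 5 were found in at least 50% of members. Nr2f2 (COUP-TFII), the transcription factor of venous identity, was at 87.3 CPM and found in 90.1% of members. Selp (P-selectin) was at 142.5 CPM, Vcam1 at 96.7 CPM and Bst1 at 49.5 CPM. In contrast, Ackr1, the chemokine receptor of venules, was at 0 and Vwf, which codes for von Willebrand factor, had 8 UMIs in 8 cells.

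Lymphatic genes were present for 2 of 12 genes at 10 CPM or more. Lyve1, a hyaluronan receptor of lymphatic endothelium and of some macrophages (chr7:110850607-110863239), was at 73.3 CPM in 95 members, with a median of 1 UMI and a highest cell of 91, which held 13.4% of all Lyve1 UMIs. Flt4 (VEGFR-3) was at 21.3 CPM. Prox1, Ccl21a, Reln, Mmrn1 and Foxc2 were each at 0, so the defining lymphatic transcription factor was not detectable at this depth.

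Tip cell genes split in the same way. Apln (chrX:48025146-48034853), was at 496 CPM in 146 members, with a median of 14.5 UMIs, quartiles of 4 and 36.75 and a highest cell of 396. Esm1 was at 82.1 CPM in 82 members and the angiopoietin gene Angpt2 at 44.0 CPM. Dll4, the Notch ligand of tip cells, and Nid2 each had 1 UMI, and Aplnr, the apelin receptor, was at 0. High levels of the ligand were thus measured without its receptor.

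**Figure D2:**
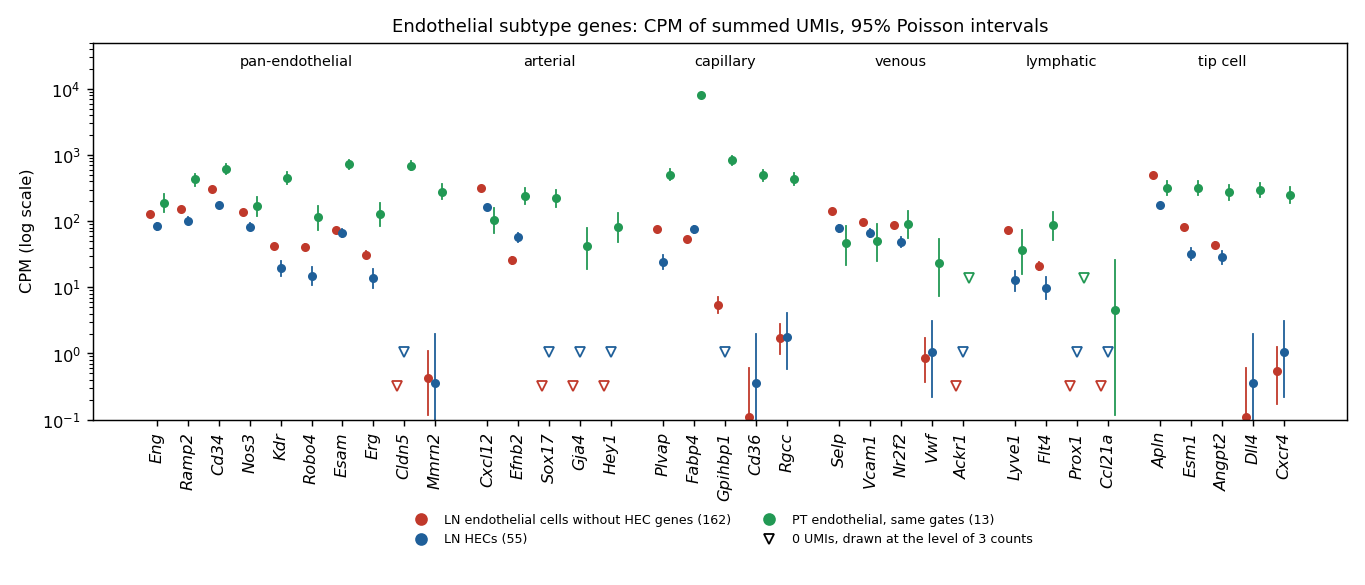
CPM of summed UMIs on a log scale for 34 endothelial subtype genes in the members (red), the LN HECs (blue) and PT endothelial cells passing the same gates (green), with 95% Poisson intervals as lines and open triangles for genes at 0 drawn at the level of 3 counts. Cldn5, Sox17, Gja4, Hey1, Ackr1, Prox1 and Ccl21a were at 0 in both LN sets, while Apln was at 496 CPM in the members and 173 CPM in HECs.

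Beyond vessel identity, 15 genes were named as highest over the other LN cells that were neither members nor HECs. This comparison is a description, because the gate chose endothelial cells. It was led by Esm1, with a log2 ratio of 5.36, the guidance ligand Slit2 with 5.35, the heparan sulphatase Sulf1 with 5.31 and Lyve1 with 5.18. The homeobox genes Hoxd10 (log2 ratio 4.97) and Hoxd4 (log2 ratio 4.92) were among them, as were the serotonin receptor gene Htr2a (log2 ratio 5.14), Sele (E-selectin, log2 ratio 4.94) and Cav1 (caveolin-1, log2 ratio 4.90). The others were Gask1b, Rhoj, Arhgef15, Lgi2, Zfpm2 and Lpar4.

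The first comparison set the members against the 55 LN HECs, a pair from the same library that differed in the HEC gate. At equal CPM scale, 354 of 7528 genes with at least 100 UMIs in either set were at least 2-fold higher in the members (4.70%) and 67 were at least 2-fold lower (0.890%). The median log2 ratio over all these genes was 0.11, so most genes were at similar levels in both sets. Log2 ratios here have 0.5 added to each count.

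Both genes with the lowest ratios to HECs belong to the HEC programme. Enpp2, which codes for autotaxin, the enzyme that makes lysophosphatidic acid at HEVs (chr15:54838901-54952892), was at 2.26 CPM in members and 259 CPM in HECs, a log2 ratio of -6.81 (-7.54 to -6.22). Alox12, the 12-lipoxygenase of arachidonic acid (chr11:70241457-70255353), was at 3.55 CPM in members and 299 CPM in HECs, a log2 ratio of -6.37 (-6.94 to -5.89). Alox12 was detected in 13 of 162 members, and 1 of them held 36.4% of its 33 UMIs, without which the members were at 2.27 CPM. It was at 12.5 CPM in the members with at most 6000 genes and 1.34 CPM in the deeper ones. The T cells with at most 6000 genes and no keratin UMI were at 1.45 CPM (0.724 to 2.59). The corresponding B cells were at 51.7 CPM, but all 503 UMIs came from 14 of 4074 cells (0.344%). Because both genes had under 100 UMIs in members, they entered this comparison only through the HECs, so their lower level in members was fixed by that limit. Of 4 arachidonate pathway genes compared, 2 had a negative and 2 a positive log2 ratio. However, 2 of the 4, Alox5ap among them, entered only through the members, and Alox12 only through the HECs. The 1 gene with at least 100 UMIs in both sets, Ptgs2, had a log2 ratio of -0.95. The cyclooxygenase gene Ptgs2 was at 68.1 CPM in members and 131.5 CPM in HECs (86.7 CPM without 1 HEC that held 36.4% of its UMIs), and Alox5ap at 17.4 and 4.96 CPM.

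The other HEC genes outside the gate did not separate the sets in the same way. Of 9 with enough UMIs, 2 were at least 2-fold lower in members, Enpp2 and Alox12, against 0.890% of all genes, and their direction was fixed as said above. Another 2 were at least 2-fold higher, against 4.70%, and entered only through the members, namely Spns2, a sphingosine 1-phosphate exporter, with a log2 ratio of 1.62 and the sialyltransferase gene St3gal4 with a log2 ratio of 1.24, whose 14 HEC UMIs came to 64.3% from 1 cell (1.88 CPM without it, against 4.96 CPM with it). The sialomucin gene Cd34 was at 305 CPM in members and 173 CPM in HECs. Madcam1, Chst2, Fut4 and Ccl21a were at 0 in both sets.

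Core, venous, angiogenic receptor and basement membrane genes were somewhat higher in members than in HECs, while other endothelial lists varied. The log2 ratio of all genes compared had a median of 0.11 and quartiles of -0.15 and 0.41. All 10 core genes compared, which leave out those of the rule, had a positive log2 ratio, with a median of 0.85. Of these, 5 were at least 2-fold higher, against 4.70% of all genes. However, 6 of the 10 had under 100 UMIs in HECs and entered only through the members, which favours a positive ratio. Of the 4 with at least 100 UMIs in both sets, all were positive (median 0.61) and 1 was at least 2-fold higher. The 5 were Icam2 (log2 ratio 1.78), Robo4 (1.42), Erg, an ETS factor of endothelial cells (1.15), Ecscr (1.10) and Kdr (1.08). All 7 venous genes (median 0.85), all 11 angiogenic receptors (median 0.64) and all 11 basement membrane genes (median 0.63) were positive as well, with 2, 4 and 0 at least 2-fold higher against the same 4.70%. Of these, 3 of 7, 9 of 11 and 6 of 11 entered only through the members. The remaining 4, 2 and 5 genes, with at least 100 UMIs in both sets, were positive (medians 0.70, 0.63 and 0.51) and 0 of them were at least 2-fold higher. Junction and caveolae lists, with 11 and 12 genes, had medians of 0.18 and 0.20, and the 2 arterial genes -0.09. Capillary and sprouting lists, with 5 genes each, had medians of 0.76 and 0.63. The 20 endothelial transcription factors had a median of 0.46, or 0.14 over the 11 with at least 100 UMIs in both sets. The receptor pair Nrp2 and Plxna1, through which semaphorin 3C signals, was at 75.3 and 11.9 CPM in members and 48.2 and 9.93 CPM in HECs.

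Apln had a log2 ratio to HECs of 1.51 (1.38 to 1.65) and Lyve1 of 2.50 (2.04 to 3.05), the latter from 12.8 CPM in HECs. The gene with the highest ratio was Thsd1, a vascular thrombospondin-domain protein, at 12.8 CPM in members and 1.77 CPM in HECs (log2 ratio 2.72). Others named at this end were Depp1, Vwa5a and Itgb3, the integrin beta 3 chain, at log2 ratios of 2.44, 2.31 and 2.17. Thsd1, Lyve1, Depp1, Vwa5a and Itgb3 had between 5 and 36 UMIs in HECs and entered only through the members. Id3, a target gene of BMP signalling, was at 236 CPM in members and 78.0 CPM in HECs, and the ligand gene Bmp4 at 336.5 and 159 CPM.

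A few cell cycle genes were higher in members than in HECs. From the cell cycle list, all 19 genes were compared and 3 were at least 2-fold higher, against 4.70% of all genes, namely Ube2c (473 CPM in members, 103 CPM in HECs and 55.5 CPM without 1 HEC that held 49.1% of the HEC UMIs), Top2a (334 and 97.9 CPM) and Cdk1 (216 and 65.9 CPM). In the members with at most 6000 genes, Ube2c, Top2a and Cdk1 were at 236, 109 and 115 CPM. The 10 genes with the highest ratios also held Aurkb and Prc1, which act in mitosis, and the histone genes H2ac20 and H2ax, at log2 ratios between 2.24 and 2.55. Of these 4, Aurkb, H2ac20 and H2ax had 32, 41 and 95 UMIs in HECs and entered only through the members. The median log2 ratio of the cell cycle list was 0.31. Mki67, the proliferation marker Ki-67, was at 174 CPM in members and 157 CPM in HECs, and the interval of its log2 ratio, -0.00 to 0.30, included 0. In members Mki67 was found in 78.4% of cells. The keratin-positive LN cells were at 229 CPM for Mki67 and 488 CPM for Top2a, above both endothelial sets.

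Some genes that were high in members were low in the keratin-positive cells. Apln was at 5.32 CPM, Lcn2 at 5.30 CPM and Rsad2 at 7.23 CPM in these cells, and Ccl5 at 30.0 CPM. Enpp2, in contrast, was at 177 CPM in keratin-positive cells and 2.26 CPM in members.

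Genes of the p53 response were lower in members than in HECs, and those of the interferon response were too, though 4 of the 5 interferon calls rested on single HECs. Of 13 p53 targets, 11 had a negative log2 ratio, the median was -0.68 and 3 were at least 2-fold lower, against 0.890% of all genes. These were Mdm2, the ubiquitin ligase of p53 (355 CPM in members, 1006 CPM in HECs), the death gene Bbc3 (log2 ratio -1.53) and Btg2 (log2 ratio -1.17). The p53 targets also moved with depth within the members. All 14 listed summed to 4575 CPM in members with at most 6000 genes and 3145 CPM in the deeper ones. In HECs, the shallower set, they summed to 4898 CPM, and the part of depth in the p53 calls was not tested. Of 16 interferon genes, 12 were negative, the median was -0.37 and 5 were at least 2-fold lower, against the same 0.890%, namely Ifit1, Ifit2, Ifit3, Rsad2 and Usp18. Without, for each gene, the HEC with most of its UMIs, a step that can only lower the HEC total, the 3 p53 calls held, whereas of the 5 interferon calls only that of Ifit3 did, and the median of the interferon list was -0.26. Ifit3 was at 129 CPM in members and 471 CPM in HECs, and the antiviral gene Rsad2 at 485.5 and 1226 CPM, or 732 CPM without 1 HEC that held 42.2% of the HEC UMIs. The related Ifit3b was at 45.2 and 207 CPM. Of 12 heat shock and chaperone genes, 7 were negative, 5 positive and 1 at least 2-fold lower (median -0.21). That gene, Hspa5, the chaperone BiP of the endoplasmic reticulum, was at 726 CPM in members and 2471 CPM in HECs, a log2 ratio of -1.77. Within the members it moved with depth, at 1661 CPM in those with at most 6000 genes and 495 CPM in the deeper ones, and the HECs were the shallower set. The chemokine gene Cxcl10 was at 676.5 and 2458 CPM, and 1 member with 1363 UMIs held 21.7% of its UMIs, without which the members were at 534 CPM. Tcim, Klhl24, Olfr889 and Lars2 completed the 10 lowest genes, at log2 ratios of -2.59, -1.77, -1.71 and -1.61.

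**Figure D3:**
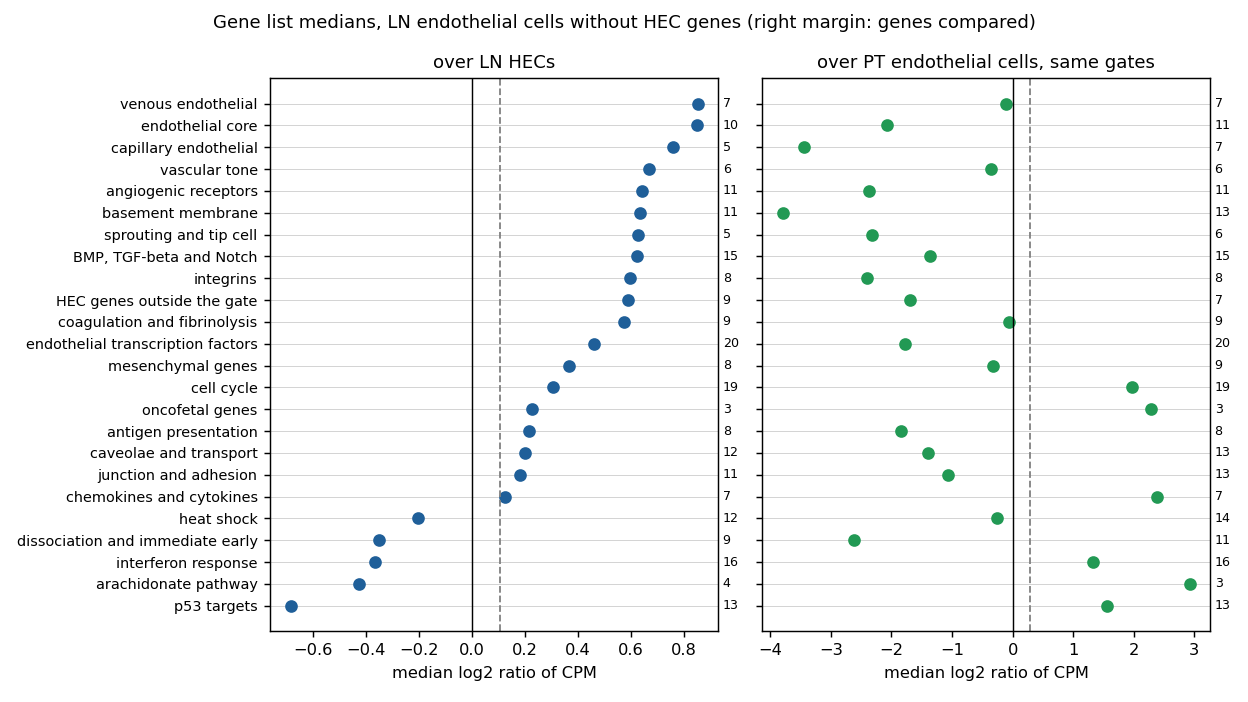
Median log2 ratio of CPM for each gene list, cell type marker lists left out, with at least 3 genes compared, members over LN HECs (left) and over PT endothelial cells (right), with the number of genes compared in the right margin and the median of all genes as a dashed line. Over HECs the endothelial lists were positive, up to 0.85, and p53 targets lowest at -0.68. Over PT cells basement membrane genes were lowest at -3.79 and cell cycle genes at 1.98, over all genes compared, including those that entered only through 1 set.

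The second comparison set the members against PT endothelial cells. Only 13 PT cells passed the same gates (0.130% of 9989 kept, 0.0693 to 0.222%), with 217216 UMIs and a median of 12687, and no PT cell passed them as an HEC. A gene at the 100 UMI limit in members corresponds to an expected 2.34 UMIs in the PT set. Of 7555 genes, 2254 were at least 2-fold higher in members (29.8%) and 1251 at least 2-fold lower (16.6%), with a median log2 ratio of 0.29. A broader PT set, with at least 3 core UMIs and no Egfl7, Procr and Hmga2 gate, held 65 cells and gave 28.4% and 16.8% of 7608 genes. RNA of other cells differed between the sets. Haemoglobin genes summed to 4042 CPM in the PT cells and 0.6 CPM in members, fibroblast markers to 1188 and 7.7 CPM, and pericyte markers to 1284 and 5.6 CPM. Their part in the results was not tested.

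Core, capillary and receptor genes of the endothelium were lower in members than in PT cells, whereas the venous, coagulation and vascular tone lists were mixed. A gene with under 100 UMIs in members entered this comparison only if its PT level was high, so that its direction was fixed, and counts are given over genes with at least 100 UMIs in members. All 10 such core genes were negative, 9 of them by at least 2-fold, with a median log2 ratio of -1.89. Esam was at 72.7 CPM in members and 723 CPM in PT cells. Flt1 was at 19.4 and 916 CPM, a log2 ratio of -5.56 (-5.86 to -5.27), and Kdr at 41.4 and 451 CPM. All 5 such capillary genes were at least 2-fold lower (median -2.73), led by Fabp4 at 53.05 against 8227 CPM. Of 11 angiogenic receptors, 10 were at least 2-fold lower (median -2.36). Counts in this direction covered well above the 16.6% of all genes. Of 7 venous genes, 2 were at least 2-fold higher and 1 lower (median -0.11), of 9 coagulation genes 2 and 2 (median -0.06) and of 6 vascular tone genes 2 and 2 (median -0.36). All 7, 7 of 9 and all 6 of these genes entered only through the members, which favours a higher ratio. Over all genes, 29.8% were at least 2-fold higher and 16.6% lower, so these 3 lists are not read as higher or lower. The adhesion receptor P-selectin (Selp) was at 142 CPM in members and 46.0 CPM in PT cells, and Nr2f2, a venous transcription factor, at 87.3 and 92.1 CPM.

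Genes of the basement membrane had the lowest median of the lists in the plot of list medians. Of 11 genes with at least 100 UMIs in members, 10 were at least 2-fold lower, against 16.6% of all genes. Their median log2 ratio was -3.32. Col4a1, a chain of type IV collagen, was at 212 CPM in members and 4452 CPM in PT cells, and the matrix protein Sparc at 720.5 and 6731 CPM. Col15a1, which entered only through the PT set, had 1 UMI in members and stood at 699.8 CPM in PT cells. Basement membrane genes are also used by pericytes and fibroblasts, whose markers were higher in the PT set by the values above. Against the same 16.6%, 6 of 8 integrins and 7 of 8 antigen presentation genes were at least 2-fold lower. H2-K1, a class I heavy chain, was at 230 and 1119 CPM. Immediate early genes were lower for 8 of 9 (median -2.02), against the same share. Fos, at 9.36 and 806 CPM, entered only through the PT set.

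The fixed rule left 120 candidate genes at the low end. Of these, Cldn5 came first and Igfbp3, which codes for an IGF-binding protein, had a log2 ratio of -12.25. Cldn5 and Igfbp3 had 0 and 9 UMIs in members and entered only through the PT set, so their direction was fixed. Fabp4, Flt1, Itm2c, Adamts1, Sat1, Timp3 and Tcf4 were also among the lowest genes, at log2 ratios from -7.28 to -2.99.

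Proliferation, p53 and interferon genes were higher in members than in PT cells. All 19 cell cycle genes were positive and 18 were at least 2-fold higher, against 29.8% of all genes, with a median log2 ratio of 1.98 (1.95 with genes at 0 in PT cells set to their bound). All 19, like all genes of the p53 and interferon lists given next, had under 100 UMIs in the PT cells and entered only through the members, which favours a positive ratio. With at most 6000 genes in both sets, which left 59 members and 11 PT cells, the median was 1.44. Top2a was at 334 CPM in members and 110.5 CPM in PT cells, but at 109 CPM in the members with at most 6000 genes, and Ccnd1, cyclin D1, at 1415 and 419 CPM. Of 13 p53 targets, 9 were at least 2-fold higher and 2 lower (median 1.55), with the stress cytokine gene Gdf15 at 598 and 23.0 CPM. Of 16 interferon genes, 9 were higher and 2 lower (median 1.32), with Bst2 (tetherin) at 1848 and 437 CPM. Oasl1 was at 457 CPM in members and at 0 in PT cells, so that members were at least 33.1-fold higher, and at 17.8 CPM in the broader PT set, found in 7 of 65 cells.

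Other genes far above the PT level came from different groups. Ccl5, Ankrd1, Lcn2, Apol9a, Klra4, Cd68, Meis2, Uap1l1 and Fst had at most 3 UMIs in PT cells and entered only through the members. That favours a high ratio, and 29.8% of all genes were at least 2-fold higher. Ccl5, a chemokine for T cells, had the highest ratio, at 1840.5 CPM in members, 1688 CPM in HECs (1109 CPM without 1 HEC that held 36.4% of its UMIs) and 4.60 CPM (1 UMI) in PT cells. In the broader PT set it was at 104.7 CPM, found in 9 of 65 cells, a log2 ratio of 4.12. It was at 1025 CPM in the LN T cells with at most 6000 genes and no keratin UMI, and after thinning was found in 53.7% of members and 13.2% of those T cells. Ankrd1, a target of mechanical signalling, was at 526 CPM in members and at 0 in PT cells (at least 38.1-fold higher), and Lcn2, which codes for lipocalin-2, at 322 CPM and 0 (at least 23.3-fold higher). The same bound was 19.2-fold for Apol9a, 15.2-fold for Klra4, 12.1-fold for Cd68, 10.0-fold for Meis2 and 9.61-fold for Uap1l1. Fst, follistatin, was at 1384 CPM in members, 863 CPM in HECs and 13.8 CPM in PT cells. Bmp4 was at 336.5 CPM in members and 9.21 CPM in PT cells. Its list of BMP, TGF-beta and Notch genes went the other way, with a median log2 ratio of -1.36. Of the 15 genes compared, 3 were at least 2-fold higher and 8 lower, against 29.8% and 16.6% of all genes. The gate gene Hmga2 was at 0 in all 13 PT cells, and Hmga1 and Igf2bp2, which with Hmga2 belong to the oncofetal list, were at 50.5 and 78.4 CPM in members against 4.60 and 13.8 CPM. Both entered only through the members. Mest, the third gene of that list compared outside the rule and the one with at least 100 UMIs in both sets, was lower, at 13.3 CPM in members and 479 CPM in PT cells (log2 ratio -5.17). The fetal genes Lin28a, Igf2 and Dlk1 were at 0 in both sets.

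The members also varied among themselves. The ratio of variance to the Poisson expectation had a median of 1.64 over 7496 genes. It was highest for Ctla2a, a cathepsin inhibitor, at 325, with quartiles of 42 and 442 UMIs around a median of 165, followed by the iron store gene Fth1 at 270 and Ccl5 at 210.3. Ccl5 ran from quartiles of 7.25 and 135.75 to a highest cell of 943 UMIs. Hspa5, Ccl2, Gdf15, Lcn2, Rsad2, Hsp90b1 and Cdkn1a completed the 10 named by the rule. Ccl2 was at 522 CPM, yet 45 members had none and 1 cell had 774 UMIs.

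Some of these genes varied together across the 162 members. Spearman's rho of CPM was 0.73 between Mdm2 and Cdkn1a, the cell cycle inhibitor p21, 0.61 between Ccl5 and Rsad2 and 0.42 between Rsad2 and Cxcl10. Apln gave 0.44 with Lyve1, 0.40 with the summed cell cycle genes and 0.32 with Esm1. The summed cell cycle genes gave 0.35 with the UMIs of the cell and -0.09 with the summed p53 targets. All these cells share 1 library and differ in depth, so the values are a description.

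Cell cycle and p53 genes differed between the deeper and the shallower members. The 103 members over 6000 genes, with a median of 70652 UMIs, were set against the 59 with at most 6000, with a median of 32880. Of 6989 genes, 137 were at least 2-fold higher in the deeper cells (1.96%) and 28 lower (0.401%), and the median log2 ratio was 0.16. Of 18 cell cycle genes, 5 were higher, Cenpf, Top2a, Ube2c, Cdk1 and Ccna2. Top2a was at 389.5 CPM in the deeper and 109 CPM in the shallower cells, a log2 ratio of 1.84 (1.63 to 2.05). Of 13 p53 targets, 12 were negative and 4 at least 2-fold lower, Mdm2, Plk2, Btg2 and Trp53inp1, with Mdm2 at 281 CPM in the deeper and 656 CPM in the shallower cells. Depth and state cannot be told apart in this split.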

How the data were processed

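Single-cell 3′ RNA of PTs and paired LNs was counted in 1 library per tissue. The authors deposited raw UMI counts per gene and cell, whole numbers without normalization. The submitters' processing notes list Cell Ranger 2.1.1 and GRCm38, while the matrix header names Cell Ranger 5.0.0. Both lists held 22620 genes.

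Members and gene lists were chosen with earlier results of these data known. UMIs were summed over the cells of a set and given as CPM. Intervals were exact at 95% (Poisson for CPM, Clopper-Pearson for shares, conditional binomial for ratios). No test was run, since cells of 1 library are not replicates. The text names members of the lists; the 10 highest and 10 lowest genes in the HEC and PT comparisons; the 15 highest over other LN cells; and the 10 with the highest variance ratio. Those genes had at least 100 UMIs and a UMI in 25% of cells of the higher set, with no cell over 20% of its UMIs; genes of the rule and mitochondrial genes were left out, and 1 gene that the rule names is not reported here. Genes compared had at least 100 UMIs in either set.

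T cells had at least 3 UMIs of Cd3d and Cd3e and none of Cd79a and Cd79b, and B cells the reverse; keratin-positive cells had over 20 keratin UMIs and at most 2 of the lymphocyte genes. The broader PT set, the T and B cells with at most 6000 genes and no keratin UMI, the counts without the top HEC of each gene and those over genes with 100 UMIs in members or in both sets were chosen after seeing the data. Scrublet's automatic threshold marked 633 of 9989 PT cells, none of them among the 13 compared, and 0 of 11269 LN cells, where it was taken to have failed. Doublets were left in; an alternative dropped cells with scores over percentile 94. Code was tested on simulated data. Versions were scanpy 1.11.5, matplotlib 3.10.9, pandas 2.3.3, scipy 1.17.1 and numpy 2.4.6, run in Python 3.11.15.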

Additional observations from a re-analysis of the deposited data

How the results depend on the processing

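No paired analysis was possible because the tissues share only replicate number 1, with 1 library each. With at most 6000 detected genes, the limit of the study, 59 members (0.573%) were left, and with the lymphocyte genes at 0, 106 members (0.941%). The other gate alternatives gave 146 to 175 members. Limiting to 6000 genes, which left fewer cells and UMIs, gave 122 genes at least 2-fold higher and 29 lower than in HECs, and 840 higher and 266 lower than in PT cells. With a limit of 30 UMIs the counts were 659 higher and 134 lower than in HECs and 2050 lower than in PT cells. The sprouting list had a median log2 ratio to PT cells of 0.084 under the 6000-gene limit, reversed from -2.32. The chemokine list reversed to -0.98 with the endothelial gate at 5 and -0.48 with the broader PT set, and the arachidonate list to -1.40 and -1.01; the cause was not tested. Of 22 levels over 10 CPM, 8 moved by over 1.5-fold under the 6000-gene limit, among them Hspa5 to 1661 CPM and Top2a to 109 CPM, and none under the 9 other alternatives. Against HECs, 249 of 258 list medians under the alternatives stayed close to the reported value, 9 moved and none reversed, while against PT cells 242 of 279 stayed close, 32 moved and 5 reversed. With 13 PT cells, a gene at 0 in PT cells is limited only to 13.8 CPM.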
